A study of Mus musculus with 19 samples.

Results

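The 6 hepatocellular carcinomas (HCCs) of the series came from 5 mice carrying the Trp53 R246S point mutation, and each HCC was compared with the unaffected liver of the mouse it grew in. Members were chosen by sample title and mouse number, which gave 6 HCCs and 5 own livers out of 19 arrays. The other 8 arrays held 4 hepatocellular adenomas (HCAs) and the livers of the adenoma mice. The adenoma mice were female and homozygous for floxed Mad2l1, without the R246S label. Floxed Trp53 was homozygous in mice 2430 and 6199 and heterozygous in mice 5884 and 5901. Their ages spanned a slightly wider range than those of the HCC mice. All 5 HCC mice were homozygous for the floxed Mad2l1 allele, carried the Trp53 R246S allele and expressed Cre from the Albumin promoter. Alb-Cre acts in hepatocytes, so blood vessel, immune and other cells in a tumor or liver sample keep both Mad2l1 copies and dilute any change in hepatocyte DNA. The own livers carried the same alleles and the same Cre, so the inherited genotype did not differ between an HCC and its own liver. The share of cells with recombined Mad2l1 was not measured and may differ between them. Mouse 6240 (female, 16.2 months) gave tumor 4 and tumor 2, and mice 6487 (male, 12.8 months), 6565 (male, 14.7 months), 6602 (female, 13.2 months) and 6642 (male, 12.3 months) gave 1 HCC each.

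Mad2l1 is a component of the spindle assembly checkpoint, which delays anaphase until all chromosomes are attached to the spindle. Cells without it missegregate chromosomes, and Trp53 normally limits the survival of cells that do so. Hepatocytes are unusual in that many of them are tetraploid in healthy adult liver. Whole-chromosome gains and losses arise from missegregation, whereas a change of a part of a chromosome also needs a DNA break. A focal change covers a small stretch within a chromosome arm and can remove or add a few genes.

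DNA copy number was measured by array comparative genomic hybridization (aCGH), in which tumor or liver DNA (Cy5) and control liver DNA (Cy3) from a mouse of the opposite sex compete for 221455 autosomal probes. The aCGH ratio is the log2 of sample over control, centred so that the median autosomal probe of an array is 0. Every change is therefore relative to the typical autosome of the same sample. The value given for a tumor is the ratio in the HCC minus the ratio in its own liver. In a pure population of cells, 3 copies in place of 2 would give 0.58 and the loss of 1 copy of 2 would give −1, whereas 5 copies in place of 4 would give 0.32 and the loss of 1 copy of 4 would give −0.42. Smaller values can come from a change in a share of the cells, and the share of cells and the number of copies cannot be told apart on these arrays.

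The arrays matched their labels. The X and Y ratios had the sign of the labelled sex on all 11 arrays, and the X ratio of the 5 livers had a size of 0.90 to 1.04, against 1 for a single-copy difference between the sexes. Over the 2000 probes that varied most between the livers, each HCC correlated best with its own liver, with r between 0.77 and 0.91 across probes against at most 0.52 with any other liver. One library stood apart. The liver of mouse 6240 had a probe noise of 0.42 on the log2 scale, against 0.22 to 0.33 for the other 4 livers, and the sum of its 19 absolute autosome ratios was 1.57 against 0.51 to 1.0. This liver is the reference of both HCCs of mouse 6240, so values of these HCCs are also given against the mean of the other 4 livers, a comparison added after the data were seen.

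There were 6 autosomes that differed between the HCCs and the own livers. Chr13, Chr12, Chr9 and Chr3 were lower and Chr16 and Chr15 were higher, with 6 of 19 autosomes past an adjusted p of 0.05 (31.6%), of which 4 were lower (21.1%) and 2 were higher (10.5%). The test was limma's intercept test over the 5 mice, with the HCCs of mouse 6240 averaged and Benjamini-Hochberg adjustment over the 19 autosomes. These p-values rest on the spread between these 5 mice pooled over the 19 autosomes, and the spread of a single autosome did not enter its own p. Chr13, Chr12, Chr9, Chr3 and Chr16 had the same direction in 5 of 5 mice and Chr15 in 4 of 5. An exact sign-flip test of 5 mice cannot give a p below 0.0625, and 0 of 19 autosomes passed it. limma estimated a single standard error of 0.055 for all 19 autosomes, so a variable autosome such as Chr16 and a uniform one such as Chr13 were given the same error.

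**Figure D1:**
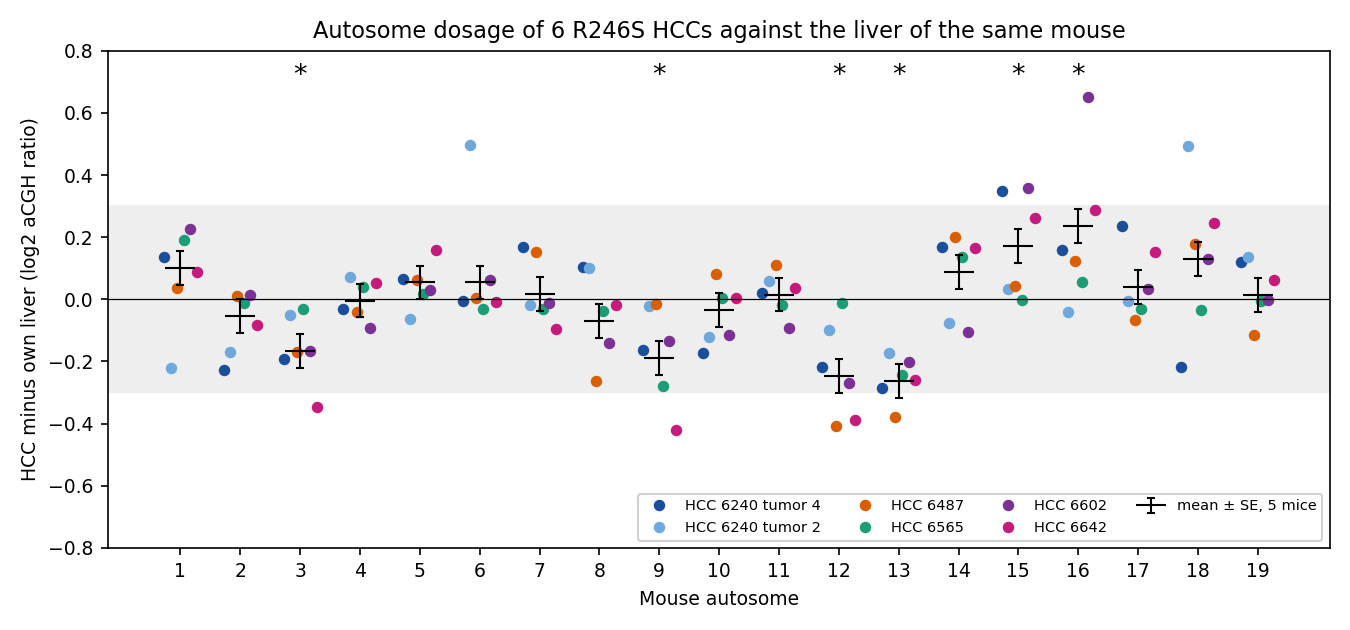
Difference in aCGH ratio between HCC and own liver (y axis, log2) for the 19 autosomes (x axis). Points are the 6 HCCs, black bars are the mean and limma's standard error over 5 mice, asterisks mark the 6 autosomes past an adjusted p of 0.05, and the grey band spans the cut-off of 0.3 in either direction. All 6 HCCs lie below 0 on Chr13, Chr12, Chr9 and Chr3, whereas the gain of Chr6 is seen in tumor 2 of mouse 6240 alone among these HCCs. In mouse 6240 the Chr13 values rest on the own liver.

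The loss of Chr13 was the most uniform change. Its difference to the own liver was −0.28 and −0.17 in tumor 4 and tumor 2 of mouse 6240, −0.38 in HCC 6487, −0.24 in HCC 6565, −0.20 in HCC 6602 and −0.26 in HCC 6642. Across mice the mean was −0.26 ± 0.07 (SD, n = 5) with an adjusted p of 0.000141 in limma. HCC 6487, with the largest of these losses, held 76.9% of its liver's Chr13 signal. The livers themselves spread on this chromosome, between −0.10 in mouse 6642 and 0.13 in mouse 6240. Against the other 4 livers, the HCCs of mouse 6240 were at −0.09 and 0.03, so their loss of Chr13 rested on their own liver. Without mouse 6240 the mean was −0.27 with an adjusted p of 0.000247 in limma. Of the 530 windows of 20 probes along Chr13, 527 were lower in limma (99.4%), against 16.6% of all 11063 autosomal windows. These windows hold the same probes and use the same own livers as the chromosome mean. They show how far the change extends and are not a separate test.

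Chr12 was lost in some tumors and unchanged in others. The difference was −0.41 in HCC 6487, −0.39 in HCC 6642, −0.27 in HCC 6602 and −0.22 in tumor 4 of mouse 6240, but −0.10 in tumor 2 of mouse 6240 and −0.01 in HCC 6565. The mean was −0.25 ± 0.17 (SD, n = 5) with an adjusted p of 0.000201 in limma. Against the other 4 livers tumor 4 of mouse 6240 had −0.15 and tumor 2 had −0.03. HCC 6487 and HCC 6642 thus held 75.3% and 76.3% of their livers' Chr12 signal, and HCC 6565 held 99.2%. The livers spanned −0.01 to 0.07 on Chr12, and 5 of the 6 HCC ratios to the control lay outside that range.

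Chr9 was lowest in HCC 6642, at −0.42, followed by HCC 6565 at −0.28. It was −0.16 in tumor 4 of mouse 6240 and −0.13 in HCC 6602, and −0.02 in both tumor 2 of mouse 6240 and HCC 6487. The mean was −0.19 ± 0.16 (SD, n = 5) with an adjusted p of 0.00415 in limma. Chr3 was −0.35 in HCC 6642, −0.19 in tumor 4 of mouse 6240, −0.17 in HCC 6487 and HCC 6602, −0.05 in tumor 2 of mouse 6240 and −0.03 in HCC 6565. Its mean was −0.17 ± 0.12 (SD, n = 5) with an adjusted p of 0.00956 in limma. Both calls were lost without mouse 6642, where the means of Chr9 and Chr3 were −0.13 and −0.12, with adjusted p of 0.131 and 0.137 in limma. The Chr3 call was also lost with tumor 2 as the only HCC of mouse 6240 (adjusted p of 0.0532 in limma), and the Chr9 call when no liver was subtracted (0.0547).

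Chr15 separated the HCCs into those with a gain and those without. It was 0.36 in HCC 6602, 0.35 in tumor 4 of mouse 6240 and 0.26 in HCC 6642, but 0.04 in HCC 6487, 0.03 in tumor 2 of mouse 6240 and −0.00 in HCC 6565. No HCC lay between 0.04 and 0.26. The mean over mice was 0.17 ± 0.15 (SD, n = 5) with an adjusted p of 0.00946 in limma. The call was lost without mouse 6602 (adjusted p of 0.0834 in limma), without mouse 6642 (0.104) and with tumor 2 as the only HCC of mouse 6240 (0.0895). The livers spanned 0.02 to 0.07, so the 3 gains stand well above any liver.

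Against the own livers, Chr16 held the largest gain of any autosome in these tumors, 0.65 in HCC 6602, although against the control Chr18 in tumor 2 of mouse 6240 (0.70) lay above it (0.63). In HCC 6602 the Chr16 signal was 157% of that in the own liver. The other differences were 0.29 in HCC 6642, 0.16 in tumor 4 of mouse 6240, 0.12 in HCC 6487, 0.06 in HCC 6565 and −0.04 in tumor 2 of mouse 6240. Part of the smaller values came from the livers, which spanned −0.15 to 0.03 on Chr16, with HCC 6487 at −0.02 and its liver at −0.15 against the control. The mean was 0.24 ± 0.25 (SD, n = 5) with an adjusted p of 0.000298 in limma. Without mouse 6602 the mean was 0.13 (adjusted p of 0.0716 in limma), and with limma's robust variance, which lets Chr16 keep its own spread, the adjusted p was 0.0728.

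**Figure D2:**
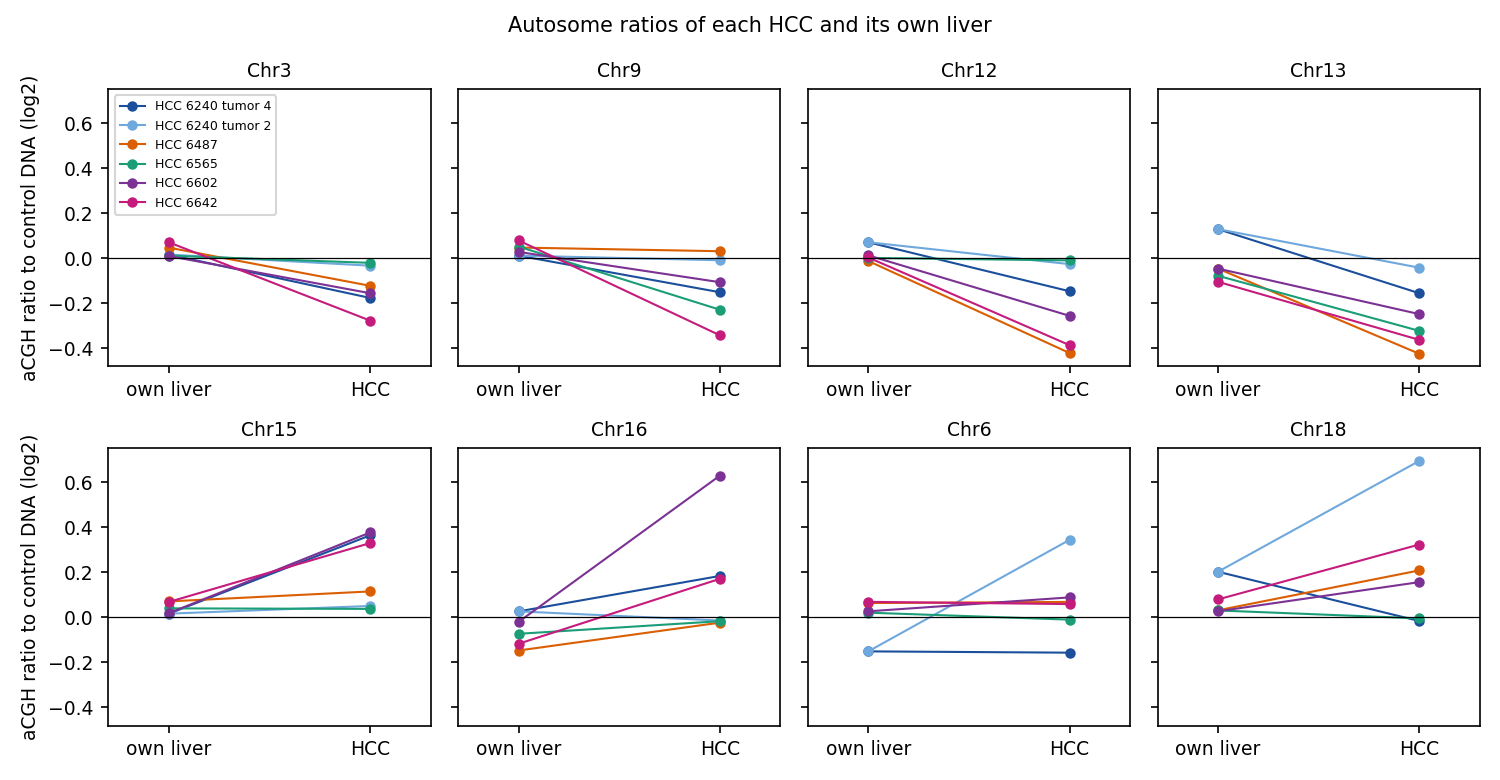
aCGH ratio to control DNA (y axis, log2) of each HCC and its own liver (x axis), joined by a line, for the 6 autosomes past the threshold and for Chr6 and Chr18. Both HCCs of mouse 6240 start from the same liver, which lies apart from the other 4 livers on Chr13 (0.13), Chr6 (−0.15) and Chr18 (0.20).

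Large gains of Chr6 and Chr18 marked tumor 2 of mouse 6240. Chr6 was 0.50 in this tumor and between −0.03 and 0.06 in the other 5 HCCs. Because the own liver was at −0.15, the gain was 0.30 against the other 4 livers, and the tumor's ratio to the control was 0.35. Chr18 was 0.49 in tumor 2, 0.24 in HCC 6642, 0.18 in HCC 6487, 0.13 in HCC 6602 and −0.04 in HCC 6565. It was −0.22 in tumor 4 of the same mouse, but −0.06 against the other 4 livers, where tumor 2 reached 0.65. Chr18 had a mean of 0.13 ± 0.10 (SD, n = 5) and an adjusted p of 0.0522 in limma. With the HCCs of mouse 6240 measured against the other 4 livers its adjusted p was 0.0174, past the threshold, and so was that of Chr1 (0.0312, mean 0.12).

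The 2 HCCs of mouse 6240 shared a liver but few changes. They had opposite signs on 9 of 19 autosomes and differed by more than 0.3 on 4 of them, Chr1, Chr6, Chr15 and Chr18. The liver cancels in the difference between the tumors, but not in the signs: against the other 4 livers Chr16 was higher in both (0.27 and 0.08) and Chr13 had opposite signs (−0.09 and 0.03). Tumor 4 gained Chr15 and tumor 2 gained Chr6 and Chr18. On Chr18 tumor 2 lay 0.71 above tumor 4, and on Chr15 it lay 0.31 below. Against the other 4 livers, the lowest autosome of tumor 2 was Chr1 at −0.10, whereas tumor 4 had Chr3, Chr6 and Chr9 at −0.21, −0.20 and −0.20.

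The remaining 11 autosomes stayed between −0.26 and 0.24 in all 6 HCCs. The lowest of these values was Chr8 in HCC 6487 and the highest was Chr17 in tumor 4 of mouse 6240. Chr1 was 0.22 in HCC 6602, 0.19 in HCC 6565 and 0.14 in tumor 4 of mouse 6240, against −0.22 in tumor 2.

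A whole-chromosome event was counted where an autosome differed from the own liver by more than 0.3. Among 114 values there were 10 events (8.77%), 5 gains and 5 losses, in 5 of the 6 HCCs. Between the livers of different mice, which is the background of the same measure, 0 of 190 values passed (0.0%) and the largest was 0.23. HCC 6642 had 3 events, the losses of Chr3, Chr9 and Chr12. HCC 6487 had 2 losses, Chr12 and Chr13. HCC 6602 had 2 gains, Chr15 and Chr16. Tumor 2 of mouse 6240 had 2 gains, Chr6 and Chr18, and tumor 4 had 1, Chr15. Against the other 4 livers Chr6 in tumor 2 fell just below the cut-off, which left 1 event in this tumor and 9 in all. HCC 6565 had 0. Between livers without that of mouse 6240 the largest difference was 0.13 over 114 values, so a lower cut-off was also counted. Beyond 0.2 there were 27 values (23.7%), 11 gains and 16 losses, against 5 of 190 between livers (2.63%), all 5 of which involved mouse 6240.

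Changes that occurred together were counted at the cut-off of 0.2. The loss of Chr13 was present in 5 HCCs and the loss of Chr12 in 4, and all 4 HCCs with less Chr12 also had less Chr13: tumor 4 of mouse 6240, HCC 6487, HCC 6602 and HCC 6642. The 3 HCCs with a gain of Chr15 were among these 4, and the 2 HCCs with a gain of Chr16, HCC 6602 and HCC 6642, were among those 3. The changes thus nested, from Chr13 through Chr12 and Chr15 to Chr16, at a cut-off that HCC 6602 just passed on Chr13 (−0.20) and tumor 2 of mouse 6240 just missed (−0.17). HCC 6642 carried all of them and also the losses of Chr3 and Chr9 and a gain of Chr18. HCC 6565 had Chr13 and Chr9 alone. Tumor 2 of mouse 6240 had none of the nested changes and carried Chr6 and Chr18 gains with a value of −0.22 on Chr1. With 5 mice no association between 2 chromosomes was tested. Against the other 4 livers tumor 4 of mouse 6240 kept its Chr15 gain (0.31), had Chr16 at 0.27, and had Chr12 and Chr13 at −0.15 and −0.09, so for this tumor the nesting depends on the reference.

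**Figure D3:**
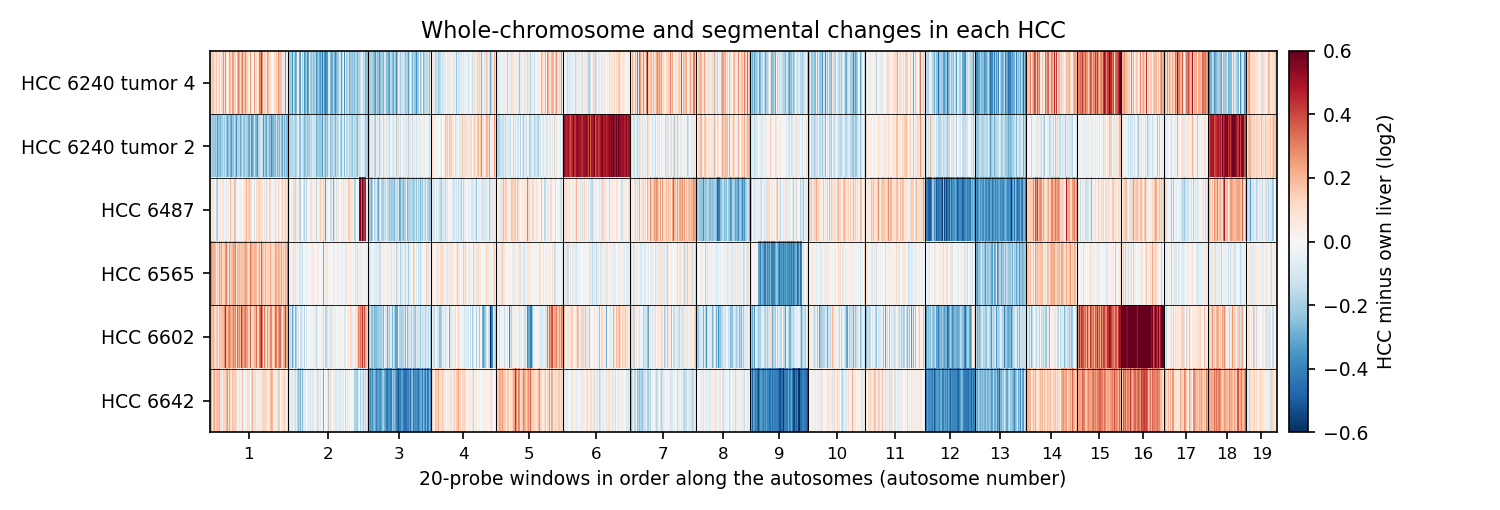
Difference between HCC and own liver (colour, log2, red higher and blue lower) in 11063 windows of 20 probes, in order along the 19 autosomes (x axis), for the 6 HCCs (rows). Most changes fill a whole chromosome. Exceptions include Chr2 in HCC 6487 and HCC 6602, Chr5 and the end of Chr12 in HCC 6602, and Chr9 in HCC 6565.

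Total CIN, which adds up how far each of the 19 autosomes lies from the control in either direction, was higher in every HCC than in its own liver. It was 2.71 and 1.69 in tumor 4 and tumor 2 of mouse 6240 against 1.57 in their liver, 2.63 against 0.91 in mouse 6487, 1.15 against 0.58 in mouse 6565, 2.90 against 0.51 in mouse 6602 and 3.09 against 1.0 in mouse 6642. HCC 6565 and tumor 2 of mouse 6240 were the least changed tumors. The mean difference was 1.48 ± 0.84 (SD, n = 5), higher in 5 of 5 mice, with an exact two-sided sign-flip p of 0.0625, the smallest that 5 mice can give. With normexp background correction the mean difference was 0.50, higher in 4 of 5 mice (exact sign-flip p of 0.1875). Between 8.90% of the autosomal windows in HCC 6565 and 32.5% in HCC 6642 lay in segments more than 0.2 from the own liver.

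Part-chromosome changes were found by segmenting the windows of each HCC, with segments of at least 10 windows and steps of at least 0.2. There were 17 such breaks: 7 in HCC 6602, 4 in HCC 6487, 2 in each HCC of mouse 6240, 2 in HCC 6565 and 0 in HCC 6642, the tumor with the most whole-chromosome events. Livers of different mice gave 0 to 10 breaks per pair, with 10 for the livers of mice 6240 and 6487. Of the segments at least 0.2 from the longest of their chromosome, the one with the most windows per pair spanned at most 4.53 Mb. Positions are on mm9 and are those of the outer probes. Genes were not placed within these segments, since the gene table at hand uses another build.

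The distal part of Chr2 was gained in HCCs of 2 mice. In HCC 6487 the segment chr2:159141984-174983506 (15.8 Mb, 75 windows) was 0.44 above the own liver, with a window SD of 0.08. The rest of the chromosome was at −0.03 on the proximal side and 0.01 on the distal side, so the steps were 0.47 and −0.43. In HCC 6602 the gain ran from 155292800 to the last window at 181723576 (26.4 Mb, 122 windows) at 0.27 with a step of 0.28. HCC 6602's segment contained that of HCC 6487. Over the 15.8 Mb common to both, the differences were 0.44 in HCC 6487 and 0.28 in HCC 6602, and −0.02 in HCC 6565, −0.12 in HCC 6642, −0.17 in tumor 4 and −0.13 in tumor 2 of mouse 6240. The last 2 values are close to those of all of Chr2 in these tumors, −0.23 and −0.17. The whole-chromosome means of Chr2, 0.01 in HCC 6487 and 0.02 in HCC 6602, did not show these gains. A second, short segment of Chr2 was higher in HCC 6602 than in its own liver, chr2:48998247-51846941 (2.85 Mb, 10 windows, 0.21). Against the control it was at 0.28 in this HCC and 0.08 in the own liver, but another liver reached 0.23.

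HCC 6602 carried opposite changes on Chr5. The segment chr5:81007477-94154527 (13.1 Mb) was −0.32, and the distal segment chr5:122308388-152536960 (30.2 Mb) was 0.25, whereas the rest of the chromosome was at −0.01 and 0.02. In the other 5 HCCs these segments were between −0.09 and 0.21, with the highest value in HCC 6642, whose Chr5 stood at 0.16 as a whole. In HCC 6602 the loss of Chr12 stopped short of the end of the chromosome. It was −0.28 over 113 Mb and −0.01 over the last 5.18 Mb (27 windows), a stretch that was −0.36 in HCC 6487 and −0.38 in HCC 6642.

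The Chr9 loss of HCC 6565 was a part of the chromosome. The segment chr9:20744985-110465474 (89.7 Mb, 455 windows) was −0.36, and the flanks were at −0.03 over the first 17.6 Mb and −0.06 over the last 13.6 Mb. The chromosome mean of −0.28 therefore understates a segmental loss of −0.36, which was 0 events at the cut-off of 0.3. In HCC 6642 the same middle segment was −0.43 and the flanks were −0.38 and −0.43, a loss of the whole chromosome.

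**Figure D4:**
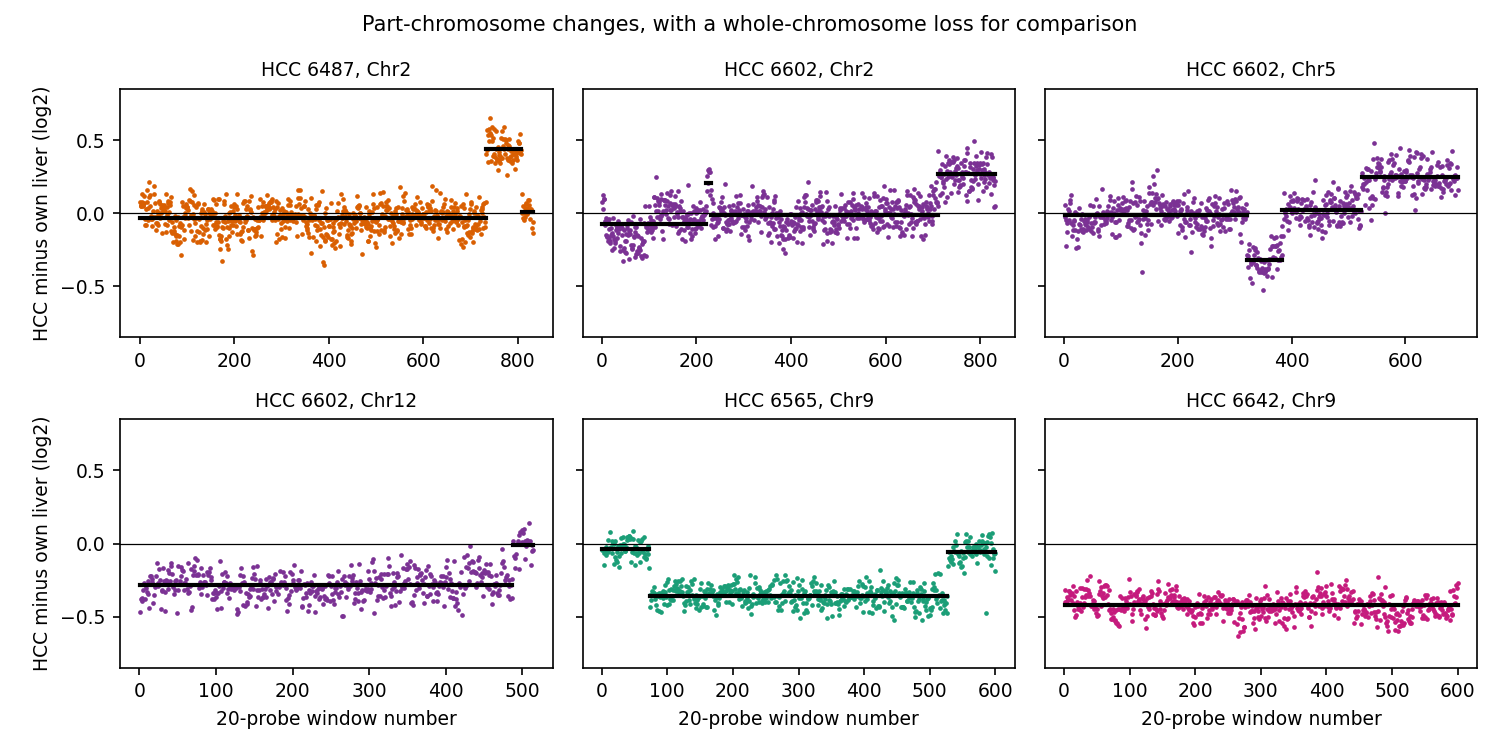
Difference between HCC and own liver (y axis, log2) in 20-probe windows, numbered along the chromosome (x axis), with segment levels as black lines. Distal Chr2 is at 0.44 in HCC 6487 and 0.27 in HCC 6602, and Chr9 is partly lost in HCC 6565 but lost over its whole length in HCC 6642.

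The remaining breaks lay around short segments. In tumor 4 of mouse 6240 a segment of 2.05 Mb on Chr10 was 0.09 while the rest of the chromosome was −0.18. Against the control this tumor was at 0.01 in the segment, with −0.10 and −0.07 on its sides. The own liver was at −0.08, with 0.09 and 0.12 on the sides, so part of each step came from the liver. Tumor 2, which shares this liver, had 0.05 in the segment and −0.13 on both sides. Breaks on Chr10 were also found in 4 of the 10 liver pairs and on Chr9 in 1, against 0 pairs with one on Chr2, Chr5 or Chr12. In tumor 2 of mouse 6240 and in HCC 6487, breaks on both sides of chr12:69023589-71387168 came from a smaller, deep loss inside this segment.

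That focal loss on Chr12 was the only one beyond 0.5 in HCCs of more than 1 mouse. A focal change is the difference to the own liver of a 20-probe window minus the level of its segment. By single probes, tumor 2 of mouse 6240 had lost chr12:70873252-71134648, 261 kb with 41 probes, and HCC 6487 had lost chr12:70691909-71248549, 557 kb with 75 probes. The smaller interval lies inside the larger one, so 261 kb was common to both tumors. Over it, the difference to the own liver was −1.58 in tumor 2 of mouse 6240, which left 33.4% of the liver's signal, and −1.08 in HCC 6487, which left 47.3%. In tumor 2 the rest of Chr12 was at −0.09, so the focal loss stood alone on a chromosome that was otherwise kept. In HCC 6487 the rest of Chr12 was at −0.40, so the focal loss lay on a chromosome that had been reduced as a whole.

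The other HCCs showed no focal step in this interval. Relative to the rest of Chr12 they were at 0.01 in tumor 4 of mouse 6240, 0.02 in HCC 6565, −0.03 in HCC 6602 and −0.01 in HCC 6642, against −1.49 in tumor 2 of mouse 6240 and −0.68 in HCC 6487. Outside the interval, Chr12 was at −0.27 in HCC 6602 and −0.39 in HCC 6642. The own livers were at 0.08 in mouse 6240 and −0.13 in mouse 6487 against the control. In tumor 4 of mouse 6240, which shares its liver with tumor 2, the interval had −0.21 and the rest of Chr12 had −0.22. The 4 HCAs had between −0.01 and 0.09 relative to the rest of the chromosome.

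**Figure D5:**
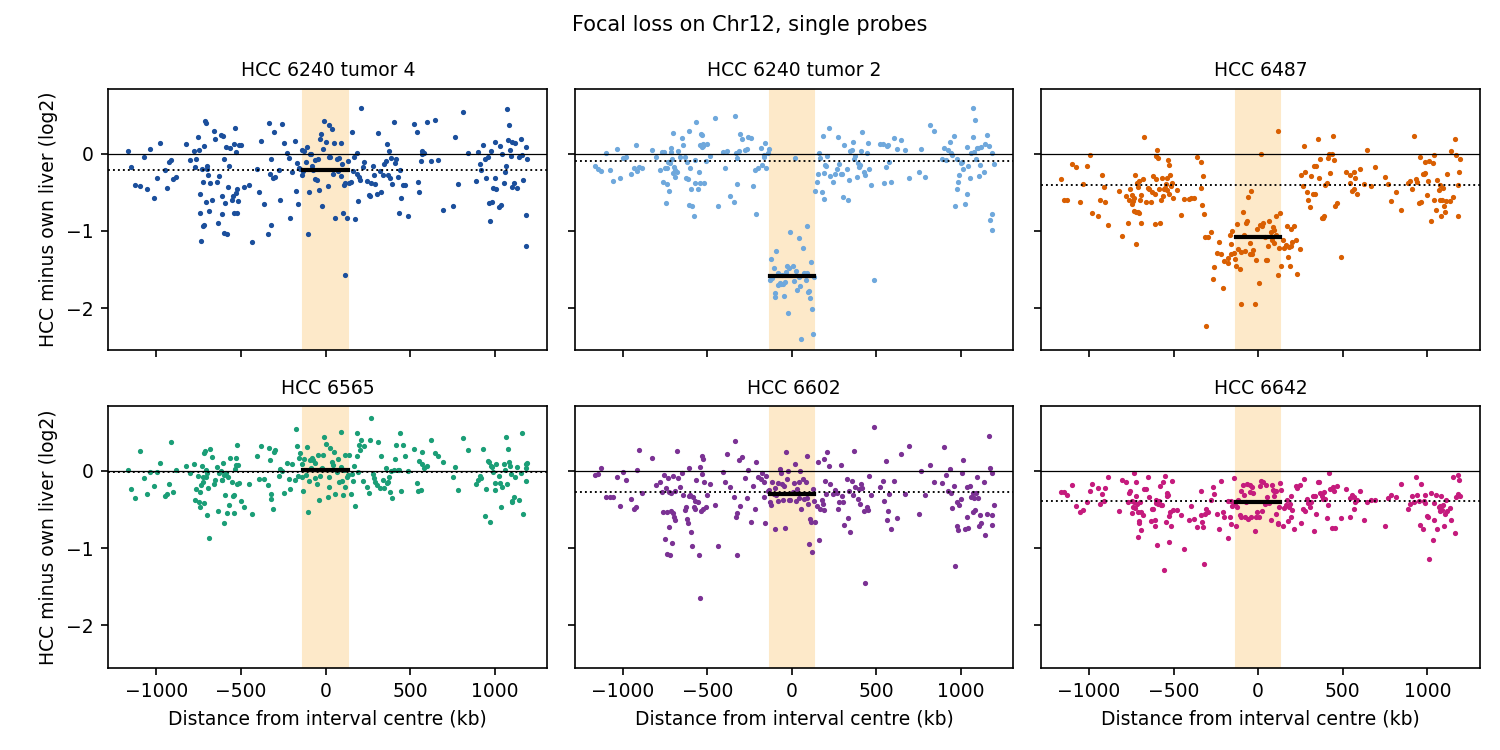
Difference between HCC and own liver (y axis, log2) of 244 single probes by distance from the centre of the shared interval on Chr12 (x axis, kb). The shaded band is the 261 kb common to both losses, the thick line its mean and the dotted line the mean of the rest of Chr12. Tumor 2 of mouse 6240 drops to −1.58 and HCC 6487 to −1.08, and the other 4 HCCs stay at their chromosome level.

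Other focal losses were each seen in 1 mouse. Tumor 2 of mouse 6240 had also lost chr4:115981950-116291633 (310 kb, 50 probes), which had a log2 difference of −0.53 to the own liver and −0.63 relative to its flanks, with the other 5 HCCs between −0.12 and 0.06. On its gained Chr6 it had chr6:6268248-6447654 (179 kb, 12 probes) at −0.96 relative to the flanks, but livers varied in that interval between −0.15 and 0.41. HCC 6487 had lost chr1:166377251-166806045 (429 kb, 38 probes) at −0.63 and chr6:86681776-86983030 (301 kb, 40 probes) at −0.56 relative to the flanks. In these intervals the other HCCs stayed between −0.05 and 0.06, and all 9 livers between −0.04 and 0.11. HCC 6642 had −0.92 in chr7:26789486-26973242 (184 kb, 12 probes), an interval in which the livers of the series ranged from −3.69 to 0.60 and the other HCCs from −0.54 to 0.36. HCC 6602 had a window at −0.52, chr4:143633000-143926354, where its own liver was at 0.24 and the other 4 own livers were between −0.22 and −0.10; single probes gave no bounded interval there. In the Chr7 interval the livers of different mice differed by more than the HCC differed from its own liver.

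No window rose by more than 0.5 above its segment in any HCC, whereas 12 windows fell by more than 0.5: 6 in tumor 2 of mouse 6240, 4 in HCC 6487 and 1 each in HCC 6602 and HCC 6642. The highest focal value was 0.46, in tumor 4 of mouse 6240, which by single probes was chr5:131568422-132090827 (522 kb, 53 probes) at 0.44 above its flanks, with the other HCCs between −0.03 and 0.06 and all 9 livers between −0.09 and 0.03. The other 8 of the 10 highest windows had values of 0.39 to 0.44. For 3 of them segments of single probes gave an interval. HCC 6487 had chr9:124040603-124046785 (6.18 kb, 18 probes) at 0.56 above its flanks, where tumor 2 of mouse 6240 had 0.39 and the livers ranged from −0.12 to 0.24. It also had chr13:61906581-62082426 (176 kb, 18 probes) at 0.46 above its flanks, where the livers ranged from 0.06 to 1.88 and HCC 6642 had 0.31. Against the own liver of HCC 6487 this interval was at 0.07 and its flanks were at −0.40, so it was little changed on a Chr13 that was lower around it. For the HCC 6602 window chr8:73199248-73305972 (0.41) the interval was chr8:73180291-73199302 (19.0 kb), which met the window only at its edge. That interval lay 1.06 above its flanks, but this mean came from 5 probes with an SD of 2.16.

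The remaining 5 of these windows were bounded by windows alone. Tumor 4 of mouse 6240 had chr2:157969950-158159759 at 0.40, chr9:121380018-121508563 at 0.39 and chr17:34856717-34974113 at 0.39, the last also at 0.31 in HCC 6602. Tumor 2 had chr12:19472273-20031663 at 0.39, where the 5 own livers ranged from −0.15 to 0.53. HCC 6602 had chr4:82025764-82153491 at 0.41. Pairs of livers had 7 to 24 windows beyond 0.5. Tested over the 5 mice, 0 of 11063 focal windows passed in limma (0.0%), with 1571 at an unadjusted p under 0.05. Without subtraction of the segment level, 2718 windows passed in limma (24.6%), 1839 lower (16.6%) and 879 higher (7.95%). Of these, 47 lower and 222 higher windows lay outside the 6 autosomes called as a whole, which is 0.60% and 2.82% of the 7862 windows there. Chr18 held 97 of the higher windows and Chr1 held 69.

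Known cancer genes could be assigned to the changed chromosomes but not to a dose of their own. By RefSeq annotation, 17.9% of the 20661 protein-coding genes of the autosomes lie on the 4 autosomes that were lower and 7.04% on the 2 that were higher. Of 143 genes of lists for the spindle checkpoint, p53, Hippo, Wnt and growth factor pathways, the cell cycle, apoptosis and liver tumor suppression, 30 (21.0%) lie on the former and 7 (4.90%) on the latter. Chr15 carries Myc, a transcription factor that drives cell growth, and Stk3, a kinase of the Hippo pathway that restrains liver size. Chr16 carries Gsk3b, a kinase that marks beta-catenin for degradation, and Socs1, an inhibitor of cytokine signaling. Chr9 carries Ctnnb1, which encodes beta-catenin, Atm and Chek1, kinases of the DNA damage response, and Yap1, the transcriptional effector that the Hippo pathway inhibits. Chr12 carries Sav1, the scaffold protein of the Hippo kinases, Akt1 and Mycn. Chr13 carries Tert, the catalytic subunit of telomerase, and Trip13, an ATPase that remodels Mad2l1. The list genes on Chr3 are Cenpe, Lef1, Mcl1, Nras, Pik3ca, Wwtr1 and Zmat3. Those named for the other called autosomes are examples, and the lists hold further genes there. Mad2l1 itself lies on Chr6 and Trp53 on Chr11, and Chr11 stayed between −0.09 and 0.11 in all 6 HCCs. These assignments describe chromosomes, and the copy number of a single gene was not analysed here.

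Compared with the 4 HCAs, which were taken as the most similar tumors, the HCCs did not differ on any autosome past the threshold. In limma 0 of 19 autosomes passed (0.0%), with a smallest adjusted p of 0.131, and 5 had an unadjusted p under 0.05 (Chr2, Chr6, Chr8, Chr10 and Chr15). The exact permutation test of 5 against 4 mice also called 0 of 19, with 5 at an unadjusted p under 0.05. Chr15 was 0.17 ± 0.15 (SD, n = 5) in the HCCs and 0.39 ± 0.10 (SD, n = 4) in the HCAs, and Chr13 was −0.26 ± 0.07 and −0.21 ± 0.11. Tumor type, Trp53 genotype and, in part, sex and scan day cannot be told apart in this comparison.

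Scan day and sex were compared within the HCCs. The arrays of mouse 6487 were scanned on day 2 and all others on day 3, with HCC and own liver always on the same day. Leaving out mouse 6487 gives the within-day values, in which the 6 autosomes stayed past the threshold, with adjusted p of 0.00492 for Chr13, 0.0126 for Chr12, Chr15 and Chr16, 0.00992 for Chr9 and 0.032 for Chr3 in limma. Between 2 female and 3 male mice, 0 of 19 autosomes differed in limma, with 0 at an unadjusted p under 0.05. Antigen receptor genes could not be placed on the probes, so the share of lymphocyte DNA was not tested.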

How the data were processed

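Genomic DNA of 19 samples was hybridized by the authors to 2-color Agilent Mouse CGH arrays, sample in Cy5 and sex-mismatched control liver in Cy3. The deposited tables hold a log10 ratio per spot from Feature Extraction 10.5.1.1, which had subtracted a detrended background and normalized the dyes linearly, without lowess, and the signal intensity of spot and local background, deposited as medians. The log10 ratios deposited in the series table held the same values. Per the file headers, probes were placed on mm9.

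For the present comparison the log10 ratios were converted to log2, outlier spots were left out, spots of a probe averaged, and each array centred on its autosomal median (−0.06 to 0.06 before centring). Between 99.6% and 99.9% of autosomal spots were well above background. The number of arrays limits the precision. HCC and own liver come from the same animal, which pairs them. Differences were tested in limma 3.58.1 (R 4.3.3) with Benjamini-Hochberg adjustment at 0.05, and Total CIN by an exact sign-flip test. Windows held 20 probes (median 160 kb). Segments came from penalized least squares. The segmentation and limma's intercept test were tested on simulated data, with noise that was independent between windows. The other steps were not simulated. Alternatives covered background correction, loess, centring, probe filters, cut-offs, window sizes, pairing, sex and leaving out each mouse, and, chosen after seeing the data, other reference livers. All autosomes were reported; those past the threshold or beyond 0.3 in an HCC were described by tumor, with every break and the 10 largest focal windows per direction. The members and gene lists were chosen with earlier results of these data known. The planned test of single genes was not analysed here, since the gene table (GRCm38) and the probes use different builds. Columns of the authors' own calls were not used.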

Additional observations from a re-analysis of the deposited data

Results flagged for a closer look

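Within the group of 6 HCCs, tumor 2 of mouse 6240 stood apart on Chr6 at 0.50, with the next HCC at 0.06. This was the only such case among the 24 groups of values examined, and chance alone gives about 1 in 20. Against the other 4 livers the value was 0.30.

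The sex chromosomes, which the autosome comparisons do not use, differed from the own liver by more than the spread between livers of the same sex in 4 HCCs. X was −0.72 in tumor 2 of mouse 6240 and −0.31 in tumor 4, with both female livers at 0.98 to 1.04 against the control and the tumors at 0.32 and 0.73. X was −0.16 in HCC 6487 and −0.15 in HCC 6642, with the 3 male livers between −1.02 and −0.90. Y was −1.02 in HCC 6487, which had a ratio of 2.18 against 3.21 in its liver, whereas it was 0.12 in HCC 6565 and 0.26 in HCC 6642. These differences were not tested.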

How the results depend on the processing

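The count of 6 autosomes stayed within 1.5 times under most alternatives. The exceptions were 0 with normexp background correction, 1 (Chr13) with centring on the mode of the windows, 0 with the exact sign-flip test, and, over the mice left out in turn, 3 to 7, the lowest without mouse 6642. Without the replicate block, the 6 HCCs were set against livers not paired by mouse, and both HCCs of mouse 6240 counted as separate samples. Chr15 (adjusted p of 0.0941 in limma) and Chr16 (0.147) were then lost against 5 livers, and no other of these 6 calls changed there. The effect of the pairing and that of the added HCC were not separated. None of the 6 autosomes changed direction under any of 24 alternatives. The mode and normexp values were −0.23 and −0.14 for Chr13 (adjusted p of 0.0434 and 0.0882 in limma) and −0.21 and −0.11 for Chr12 (0.059 and 0.212). The cause was not tested.

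Total CIN differed by 1.48 without the replicate block, here with the HCCs of mouse 6240 averaged, with an exact permutation p of 0.0159. Whole-chromosome events numbered 3 with normexp, 3 without background subtraction, 16 with mode centring, 27 at a cut-off of 0.2 and 5 at 0.4. Breaks numbered 29 with a step of 0.15 or segments from 5 windows, 10 with a step of 0.3 and 11 with segments from 20 windows. Focal windows past the threshold numbered 45 with 10-probe windows and 0 to 282 over the mice left out, the highest without mouse 6642. Windows beyond 0.5 numbered 20 with mouse 6240 against the other 4 livers, 68 and 2 with 10-probe and 40-probe windows and 40 against the chromosome median. Windows of the difference itself numbered 1026 with tumor 2 alone and 1335 to 2578 over the mice left out. HCC against HCA gave 0 to 1 autosomes over the mice left out, with Chr15 called without mouse 6602.

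The mouse as a random block could not be fitted, since 1 mouse alone held 2 HCCs, and the gene test and its alternatives were not run.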
